A study of Mus musculus with 15 samples.

Results

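A set of 10 genes that detect cytosolic nucleic acids or receive interferon was followed in tumor-associated macrophages (TAMs) of a mouse hepatocellular carcinoma (HCC) model. They were chosen by gene symbol from the 55335 genes of the expression table: the interferon receptor genes Ifnar1, Ifnar2, Ifngr1 and Ifngr2, the RNA sensors Ddx58 (RIG-I) and Ifih1 (MDA5) with their adaptor Mavs, the DNA sensor Mb21d1 (cGAS) with its adaptor Tmem173 (STING), and the kinase Tbk1. All 10 genes were found, and all 10 were among the 11419 tested genes, whose mean reached 1 FPKM (fragments per kilobase of transcript, scaled to library size). TAMs were sorted by FACS from orthotopic tumors in the liver of C57BL/6 mice, and RNA-seq was performed on 15 samples, described by the submitters as untreated. The tumors grew from Hepa1-6 cells, a mouse hepatoma line, and formed 3 groups of 5 samples: control HCC, HCC overexpressing miR-144 and HCC overexpressing miR-451a. The miRNAs were delivered by lentivirus to the tumor cells and not to the macrophages, so the sequenced cells were not the modified ones. Nothing in the labels says that the 5 samples of a group were 5 separate mice, so the p-values measure the spread between these samples, which may be technical. The published legend for the RNA-seq of these TAMs names fewer samples per group than carry a label, and all labelled samples were used.

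The type I interferon receptor consists of IFNAR1 and IFNAR2, and the interferon-gamma receptor of the ligand-binding chain IFNGR1 and the signal-transducing chain IFNGR2, and both signal through JAK kinases. RIG-I and MDA5 recognize viral or mislocated RNA and act through MAVS, whereas cGAS makes the second messenger cGAMP on cytosolic DNA and activates STING. Both routes reach TBK1, which phosphorylates IRF3 and IRF7 to switch on interferon genes, and macrophages use all of these routes.

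Between 15.5 and 30.3 M fragments per sample were implied by the steps of the low FPKM values. The macrophage markers Adgre1, Csf1r, Cd68, Fcgr1, Mertk and Lyz2 were expressed in every sample, and they differed between control and miRNA groups. Their sum was 8620 to 9449 FPKM in control, 14571 to 16442 in miR-144 and 14267 to 15484 in miR-451a TAMs, with means of 18.01, 122 and 118 FPKM for Fcgr1, 137, 361 and 354 FPKM for Adgre1, and 1444, 919 and 910 FPKM for Cd68. Of 54 marker genes of 12 other cell types, 13 were listed at 0 in all samples and 42 stayed under 1 FPKM in all samples. Among the hepatocyte markers, Alb, Apoa1, Apoc3, Serpina1a and Ttr were listed at 0, as were the T cell markers Cd3e and Cd3g, the NK cell markers Ncr1 and Gzma, the neutrophil marker Retnlg, the eosinophil marker Prg2, the Kupffer cell marker Clec4f and the stellate cell marker Lrat. Of the other cell types, marker sums of both miRNA groups lay above control for Kupffer cells (3.30 to 3.77 FPKM in control, 17.1 to 50.1 in miR-144 and 15.99 to 47.3 in miR-451a TAMs, of which Cd5l made up most), for plasmacytoid dendritic cells (115 to 142, 192 to 276 and 201 to 275 FPKM, of which Bst2 made up most) for fibroblasts (69.0 to 87.5, 89.3 to 141 and 122 to 156 FPKM, of which Col1a1 made up most), for monocytes (1.30 to 1.72, 3.66 to 4.70 and 3.99 to 5.28 FPKM, mostly Vcan and Ccr2), for B cells (0.138 to 0.375, 1.11 to 1.45 and 1.17 to 1.73 FPKM, mostly Cd79b) and for endothelial cells (3.70 to 4.29, 4.67 to 5.02 and 4.65 to 5.93 FPKM, mostly Kdr). Among the plasmacytoid dendritic cell markers, Bst2 had means of 128, 234 and 228 FPKM and Tcf4 1.85, 4.604 and 3.997 FPKM. Siglech (0.0134, 0.203 and 0.157 FPKM) and Ccr9 (0.0408, 0.0549 and 0.0631 FPKM) stayed under 1 FPKM in all samples. The cell type that the Bst2 RNA came from was not tested. The means of Kdr were 2.80, 3.84 and 4.07 FPKM. Those of the endothelial markers Pecam1 (0.197, 0.126 and 0.163 FPKM) and Stab2 (0.925, 0.807 and 0.866 FPKM) were not higher than in control, and Cdh5 had 0.0782, 0.0942 and 0.107 FPKM. The sums lay below control for eosinophils (2.09 to 2.59, 0.159 to 0.493 and 0.242 to 0.519 FPKM, mostly Siglecf) and NK cells (0.192 to 0.416, 0.0477 to 0.168 and 0.0323 to 0.137 FPKM, mostly Klrb1c). For conventional dendritic cells the sum was above control in miR-144 TAMs alone (0.281 to 0.420, 0.473 to 0.561 and 0.401 to 0.658 FPKM), and those of neutrophils, T cells and hepatocytes overlapped. The part of these differences, those of the macrophage markers included, in the results was not tested. In bulk RNA, fewer cells of a type and less RNA per cell cannot be told apart.

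Of the 10 genes, 9 rose and Ifngr2 fell in TAMs from miR-144 tumors, and 8 rose and Ifngr2 fell in TAMs from miR-451a tumors, where Tbk1 did not pass the test. The largest rises were those of Ddx58, Ifngr1, Ifih1 and Ifnar2. With limma on log2(FPKM + 1) and Benjamini-Hochberg adjustment over all tested genes, 10 of 10 genes passed an adjusted p of 0.05 in miR-144 TAMs, where 67.2% of all tested genes did, and 9 of 10 in miR-451a TAMs, where 68.3% did. The share of higher genes was 47.1% and 48.1% of all tested genes, and that of lower genes 20.1% and 20.3%. The median log2 fold change of the 10 genes was 0.44 and 0.51, beside 0.13 and 0.14 over all tested genes. Both comparisons use the same 5 control samples. Of all called genes, 70.1% and 70.3% were higher, and these shares were 50% and 49.6% with the samples centred on their medians, 52.3% and 52.3% with quantile normalization, and 76.5% and 77.3% after rescaling to TPM. Median centring moved the median of all genes from 0.13 to -0.00 in miR-144 TAMs and from 0.14 to -0.01 in miR-451a TAMs, so small rises are also given relative to the median gene.

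**Figure D1:**
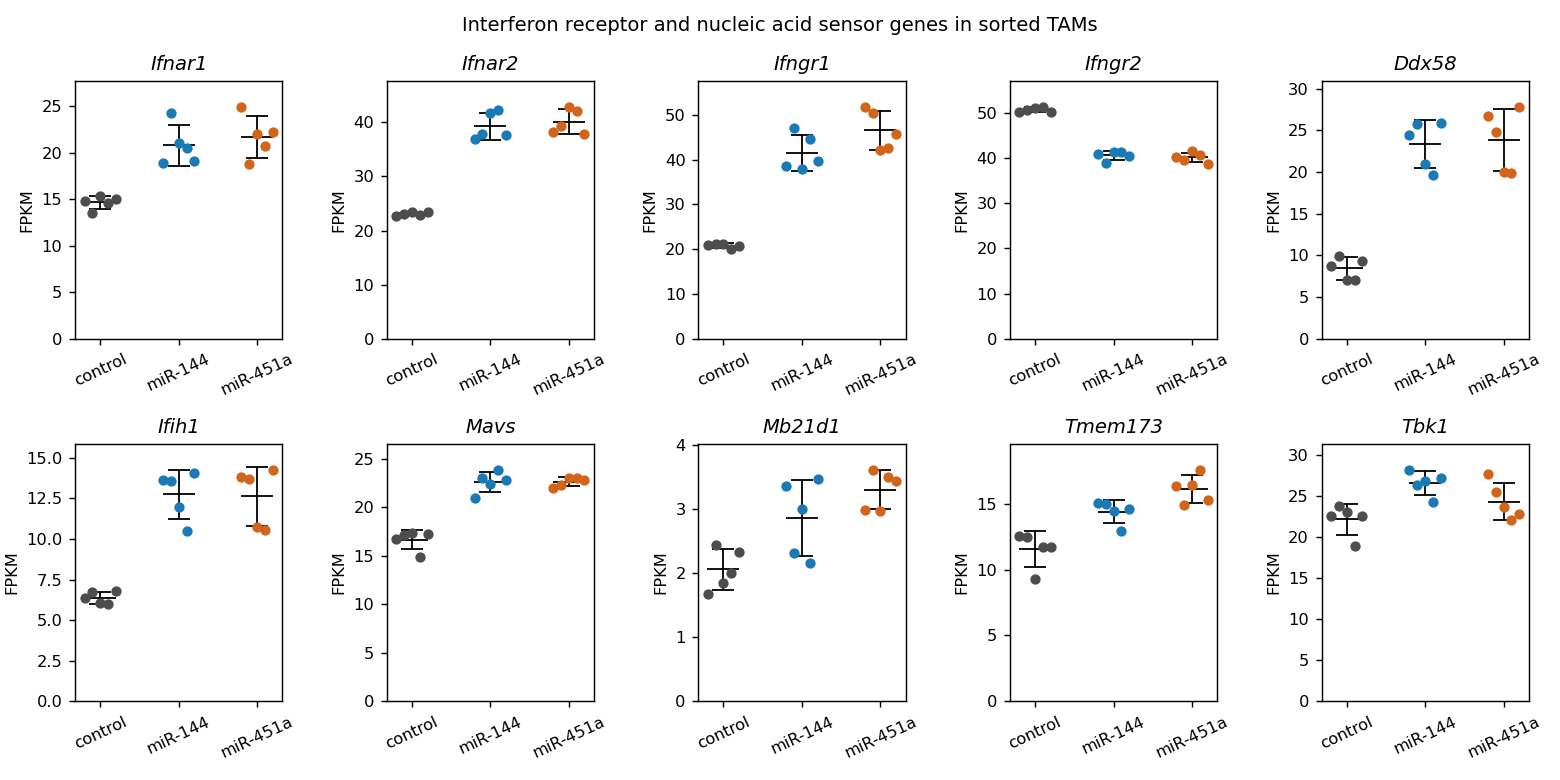
FPKM of the 10 genes (y axes, from 0, a scale per gene) in each of the 5 samples of the control, miR-144 and miR-451a groups (x axes), with the mean and SD as bars. Ifngr2 sits between 50.1 and 51.3 FPKM in control samples and at no more than 41.5 FPKM in all others, while Ifnar2, Ifngr1, Ddx58 and Ifih1 lie higher in all 10 samples of the miRNA groups than in all control samples.

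In control TAMs, Ifngr2 was the most abundant of the 10 genes at 50.6 ± 0.533 FPKM (SD, n = 5) and lay above Ifnar2, Tbk1 and Ifngr1, whose ranges overlapped from neighbor to neighbor at means of 23.2, 22.2 and 20.8 FPKM. Mavs (16.7 FPKM) and Ifnar1 (14.7 FPKM) overlapped, as did Tmem173 (11.5 FPKM) and Ddx58 (8.44 FPKM), and Ifih1 (6.39 FPKM) and Mb21d1 (2.06 FPKM) were each below the gene before them in all samples. In miR-144 TAMs, Ifngr1, Ifngr2 and Ifnar2 overlapped at the top with means of 41.5, 40.5 and 39.3 FPKM, followed by Tbk1, Ddx58, Mavs and Ifnar1, which overlapped from neighbor to neighbor between 26.6 and 20.8 FPKM. In miR-451a TAMs, Ifngr1 at 46.6 ± 4.38 FPKM (SD, n = 5) lay above Ifngr2 in all samples. FPKM is divided by transcript length, so these levels can be compared between genes.

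Ifngr1 encodes the chain that binds interferon-gamma. Its values were 20.9, 21.2, 21.2, 20.1 and 20.7 FPKM in control TAMs, 38.6, 47.0, 37.9, 44.5 and 39.7 FPKM in miR-144 TAMs, and 51.8, 50.4, 42.2, 42.7 and 45.8 FPKM in miR-451a TAMs. No sample of either miRNA group came near the control range. The level was 1.99-fold higher in miR-144 TAMs (log2 fold change 0.96, SE 0.07, adjusted p = 5.52e-09) and 2.24-fold higher in miR-451a TAMs (log2 fold change 1.12, SE 0.07, adjusted p = 8.32e-10).

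Ifngr2, its signaling partner, went the other way. Control samples had 50.1, 50.6, 51.0, 51.3 and 50.1 FPKM, miR-144 samples 40.8, 38.8, 41.4, 41.2 and 40.5 FPKM, and miR-451a samples 40.1, 39.5, 41.5, 40.6 and 38.7 FPKM. The 10 samples of the miRNA groups all lay below the lowest control sample, and the SD within a group did not exceed 1.06 FPKM. Ifngr2 was 0.801-fold of control in miR-144 TAMs (log2 fold change -0.31, SE 0.03, adjusted p = 4.04e-08) and 0.792-fold in miR-451a TAMs (log2 fold change -0.33, SE 0.03, adjusted p = 2.22e-08). It was the only one of the 10 genes that fell, and its fold change stayed between -0.47 and -0.25 on the log2 scale in all alternatives tried.

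The ratio of Ifngr1 to Ifngr2 within a sample does not depend on how samples are scaled to each other. It was 0.411 ± 0.0113 in control TAMs, 1.03 ± 0.121 in miR-144 TAMs and 1.16 ± 0.126 in miR-451a TAMs (SD, n = 5 each). The ratio was higher in every sample of both miRNA groups than in every control sample, by 1.31 and 1.49 on the log2 scale. For 5 against 5 samples, the two-sided exact permutation p was 0.00794, the smallest that 252 splits allow, and 0.0238 after adjustment over 12 tests (4 ratios in 3 comparisons).

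Ifnar2 encodes the high-affinity chain of the type I interferon receptor. It had 22.8, 23.1, 23.5, 23.0 and 23.5 FPKM in control samples, 36.9, 37.9, 41.6, 42.4 and 37.7 FPKM in miR-144 samples, and 38.3, 39.2, 42.9, 42.2 and 37.8 FPKM in miR-451a samples. Every sample of the miRNA groups was above every control sample. Ifnar2 rose 1.70-fold in miR-144 TAMs (log2 fold change 0.74, SE 0.04, adjusted p = 1.14e-09) and 1.73-fold in miR-451a TAMs (log2 fold change 0.76, SE 0.04, adjusted p = 6.99e-10).

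Ifnar1, the other chain, had 14.8, 13.5, 15.4, 14.6 and 15.1 FPKM in control samples, 18.9, 24.3, 21.1, 20.5 and 19.2 FPKM in miR-144 samples, and 24.9, 18.7, 22.01, 20.7 and 22.2 FPKM in miR-451a samples. The groups did not overlap with control, and the spread within the miRNA groups (SD 2.16 and 2.27 FPKM) was wider than within control (SD 0.722 FPKM). Ifnar1 rose 1.42-fold in miR-144 TAMs (log2 fold change 0.47, SE 0.07, adjusted p = 4.06e-05) and 1.48-fold in miR-451a TAMs (log2 fold change 0.53, SE 0.07, adjusted p = 1.13e-05).

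The ratio of Ifnar1 to Ifnar2 was 0.634 ± 0.0290 in control TAMs, 0.530 ± 0.0631 in miR-144 TAMs and 0.544 ± 0.0736 in miR-451a TAMs (SD, n = 5 each). The difference from control was -0.26 on the log2 scale in miR-144 TAMs (exact permutation p = 0.0317, adjusted 0.0762) and -0.23 in miR-451a TAMs (exact permutation p = 0.0714, adjusted 0.143), and neither passed after adjustment. Single samples moved this call: without miR-144 replicate 2 the difference was -0.33 (adjusted exact permutation p = 0.0190), and without miR-451a replicate 1 it was -0.30 (adjusted exact permutation p = 0.0381).

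Ifnar2, Ifnar1 and Ifngr2 lie within 192.841 kb of mouse chromosome 16 on the plus strand (GENCODE M21, GRCm38), with the interleukin-10 receptor gene Il10rb between Ifnar2 and Ifnar1. Ifnar2 spans chr16:91372783-91405589, Il10rb chr16:91406164-91425834, Ifnar1 chr16:91485238-91507441 and Ifngr2 chr16:91547072-91565623. The neighbors thus differed in direction: Ifnar2 and Ifnar1 rose, Ifngr2 fell, and Il10rb had 54.5 ± 12.6, 54.1 ± 11.2 and 48.7 ± 14.7 FPKM (SD, n = 5 each) in the control, miR-144 and miR-451a groups, with log2 fold changes of -0.00 and -0.18 that did not pass the test (adjusted p = 0.995 and 0.507). Of the 50-base stretches of the Ifnar2 transcript, 8.87% also occur in Gm21970, an overlapping gene model on the same strand with a mean of 0.130 FPKM, so a small part of the Ifnar2 reads could be split. Ifngr1 lies elsewhere, at chr10:19591949-19610229 on the plus strand.

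The promoters of Ifnar1 and Ifnar2 are shown where they hold the core of a gamma-activated site, an element found in many interferon-gamma response genes. Windows of 250 bases before to 50 bases after the gene start (RefSeq, GRCm38.p6) were searched for TTCNNNGAA in 9 of the 10 genes, with Tmem173 left out. This motif reads the same on both strands and does not overlap the other motif searched. It is present in 8.30% of 32851 promoters and in those of 2 of the 9 genes. The match lies across the RefSeq start of Ifnar1 (bases 246 to 254 of the window, in which base 251 is the start). It is upstream of the GENCODE M21 start of Ifnar1 at chr16:91485238. In Ifnar2 the match lies upstream (bases 37 to 45). The stretches shown are chr16:91485203-91485226 and chr16:91372562-91372585 on the plus strand, with the match in capitals.
Ifnar1: gggggcgTTCACGGAAggggcggg
Ifnar2: caaggccTTCCTGGAAgaagagag
The windows of Ifngr1 and Ifngr2 do not hold these letters.

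Ddx58 encodes RIG-I, which binds RNA with a 5' triphosphate. Its values were 8.74, 9.98, 7.08, 7.04 and 9.34 FPKM in control TAMs, 24.4, 25.8, 20.9, 19.6 and 25.9 FPKM in miR-144 TAMs, and 26.7, 24.9, 20.01, 19.9 and 27.8 FPKM in miR-451a TAMs. The groups were far apart, and replicates 3 and 4 were the lowest in all 3 groups. Ddx58 showed the largest change of the 10 genes, 2.77-fold in miR-144 TAMs (log2 fold change 1.37, SE 0.12, adjusted p = 6.93e-08) and 2.83-fold in miR-451a TAMs (log2 fold change 1.40, SE 0.12, adjusted p = 5.37e-08). Its log2 fold change exceeded that of 97.8% of all tested genes in both comparisons.

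Ifih1 encodes MDA5, the sensor of long double-stranded RNA. It had 6.36, 6.75, 6.06, 6.00 and 6.78 FPKM in control samples, 13.6, 13.6, 11.9, 10.5 and 14.1 FPKM in miR-144 samples, and 13.8, 13.7, 10.7, 10.5 and 14.3 FPKM in miR-451a samples. Again no sample of a miRNA group overlapped with control, and replicates 3 and 4 were the lowest in each group. The rise was 1.99-fold in miR-144 TAMs (log2 fold change 0.89, SE 0.09, adjusted p = 5.35e-07) and 1.97-fold in miR-451a TAMs (log2 fold change 0.87, SE 0.09, adjusted p = 6.25e-07).

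The ratio of Ddx58 to Ifih1 rose from 1.31 ± 0.138 in control TAMs to 1.83 ± 0.0615 in miR-144 TAMs and 1.89 ± 0.0538 in miR-451a TAMs (SD, n = 5 each). Every sample of the miRNA groups was above every control sample, with differences of 0.49 and 0.53 on the log2 scale (exact permutation p = 0.00794, adjusted 0.0238 in both).

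**Figure D2:**
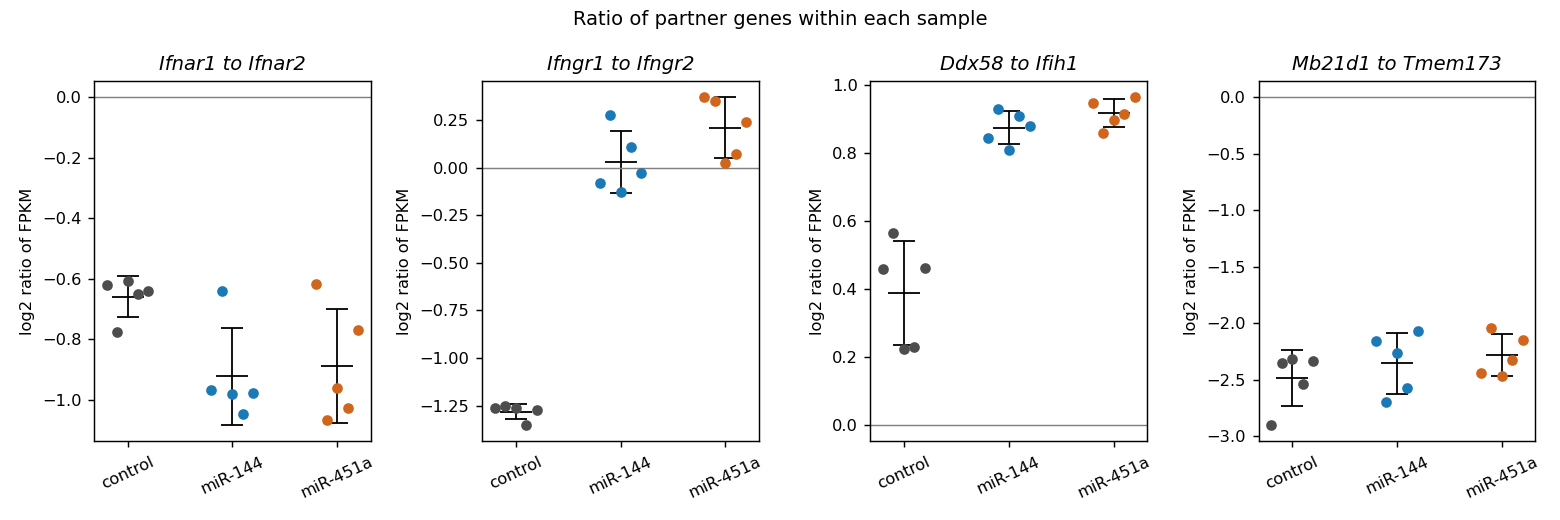
Log2 ratio of FPKM of partner genes within each sample (y axes) in the 3 groups (x axes), with points for the 5 samples and bars for the mean and SD. Control samples lie apart from both miRNA groups for Ifngr1 to Ifngr2 and for Ddx58 to Ifih1, and overlap with them for Ifnar1 to Ifnar2 and for Mb21d1 to Tmem173.

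The start regions of Ddx58 and Ifih1 are shown because they hold the core of an interferon-stimulated response element, 2 runs of GAAA with 2 bases between them on either strand, which is present in 3.44% of 32851 promoters and in those of 2 of the 9 genes. In Ddx58 the match lies just after the start (bases 253 to 262 of the window, on the strand opposite to the gene) at chr4:40239807-40239830, and in Ifih1 at bases 283 to 292 on the strand of the gene at chr2:62646207-62646230. Both genes are on the minus strand, and the sequences are given on the strand of the gene with the match in capitals.
Ddx58: gaggcagTTTCGATTTCctatggc
Ifih1: gagaatcGAAACAGAAAccgatct
Ddx58 spans chr4:40203773-40239828 and Ifih1 chr2:62595798-62646255 in GENCODE M21.

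Mavs, the mitochondrial adaptor shared by RIG-I and MDA5 (chr2:131234063-131248025, plus strand), had 16.7, 17.1, 17.4, 14.9 and 17.2 FPKM in control samples, 20.96, 23.0, 22.4, 23.9 and 22.7 FPKM in miR-144 samples, and 21.9, 22.3, 23.0, 23.0 and 22.8 FPKM in miR-451a samples. The 10 samples of the miRNA groups lay between 20.96 and 23.9 FPKM, above all control samples. The rise was 1.36-fold in both groups (log2 fold change 0.42, SE 0.04, adjusted p = 3.79e-07 in miR-144 and 3.49e-07 in miR-451a TAMs). It was thus smaller than those of the 2 sensors upstream, whose confidence intervals (0.69 to 1.08 for Ifih1 in miR-144 TAMs, 0.68 to 1.07 in miR-451a TAMs) lay above those of Mavs (0.33 to 0.51 in both).

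Mb21d1, the gene of cGAS (chr9:78430526-78443237, minus strand), was the least abundant of the 10 genes in every group. Its values were 1.68, 2.44, 1.86, 2.01 and 2.33 FPKM in control samples, 3.36, 2.31, 3.0, 2.16 and 3.48 FPKM in miR-144 samples, and 3.0, 3.62, 2.97, 3.50 and 3.45 FPKM in miR-451a samples. In miR-144 TAMs 3 of 5 samples lay above all control samples, and in miR-451a TAMs all 5 did. The fold change was 1.39 in miR-144 TAMs (log2 0.33, SE 0.10, adjusted p = 0.00978) and 1.60 in miR-451a TAMs (log2 0.49, SE 0.10, adjusted p = 0.000458). The call in miR-144 TAMs was lost with median centring (log2 fold change 0.19, adjusted p = 0.108), with quantile normalization (0.16, adjusted p = 0.186) and with only replicates 1, 2 and 5 of each group (0.36, adjusted p = 0.0503), and 4.88% of the 50-base stretches of Mb21d1 are shared with Gm8093, a pseudogene that overlaps it on the other strand.

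Tmem173, the gene of STING, had 12.6, 12.5, 9.25, 11.7 and 11.7 FPKM in control samples, 15.01, 14.99, 14.5, 12.9 and 14.6 FPKM in miR-144 samples, and 16.3, 14.9, 16.4, 17.6 and 15.3 FPKM in miR-451a samples. The miRNA groups did not overlap with control, although the lowest miR-144 sample (12.9 FPKM) was close to the highest control sample (12.6 FPKM). Tmem173 rose 1.25-fold in miR-144 TAMs (log2 fold change 0.30, SE 0.07, adjusted p = 0.00165) and 1.39-fold in miR-451a TAMs (log2 fold change 0.45, SE 0.07, adjusted p = 4.46e-05). Relative to the median gene its change was 0.17 and 0.31 on the log2 scale. The ratio of Mb21d1 to Tmem173 was 0.180 ± 0.0283, 0.198 ± 0.0361 and 0.207 ± 0.0271 in control, miR-144 and miR-451a TAMs (SD, n = 5 each), and its differences from control of 0.14 and 0.20 on the log2 scale did not pass the exact permutation test (adjusted p = 0.514 and 0.265).

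Tbk1, the kinase on which both sensing routes converge (chr10:121546455-121586787, minus strand), had 22.7, 23.9, 23.0, 19.0 and 22.6 FPKM in control samples, 28.3, 26.3, 26.9, 24.3 and 27.2 FPKM in miR-144 samples, and 27.7, 25.5, 23.8, 22.1 and 22.8 FPKM in miR-451a samples. All miR-144 samples were above all control samples, whereas only 2 of 5 miR-451a samples were. Tbk1 rose 1.20-fold in miR-144 TAMs (log2 fold change 0.25, SE 0.07, adjusted p = 0.00368). In miR-451a TAMs the log2 fold change was 0.13 (SE 0.07, 95% confidence interval -0.01 to 0.27, adjusted p = 0.103), which is -0.01 relative to the median gene. The call in miR-144 TAMs was lost with median centring (0.12, adjusted p = 0.126), and Tbk1 passed in miR-451a TAMs after rescaling to TPM (0.21, adjusted p = 0.0161) and with the replicate number as a block (0.13, adjusted p = 0.020). Without control replicate 4 or miR-451a replicate 1, its log2 fold change in miR-451a TAMs was 0.07 and 0.08. Its difference between the 2 miRNA groups was -0.12 (95% confidence interval -0.27 to 0.02, unadjusted p = 0.0814).

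**Figure D3:**
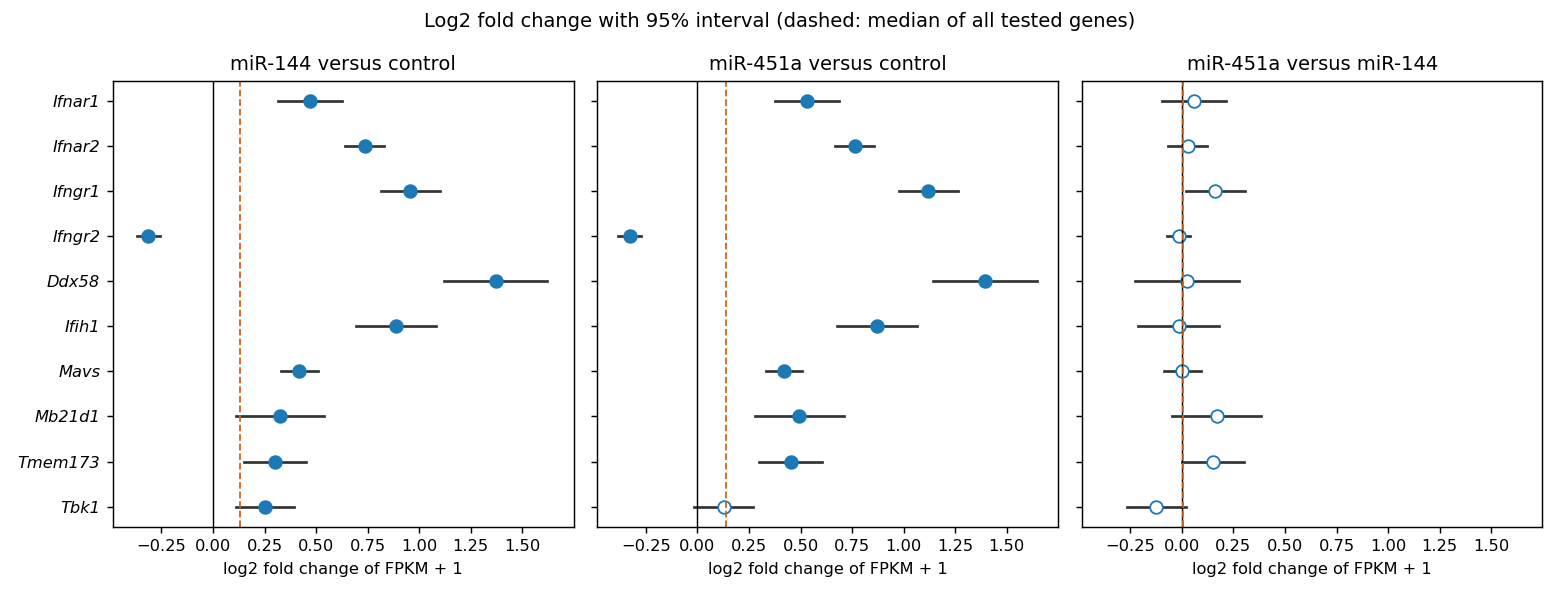
Log2 fold change of FPKM + 1 (x axes) of the 10 genes (y axis) with 95% confidence intervals in the 3 comparisons, with filled points for an adjusted p under 0.05 and a dashed line at the median of all tested genes. Against control, Ddx58 at 1.37 and 1.40 lies farthest to the right and Ifngr2 at -0.31 and -0.33 to the left of 0, while no point is filled between the miRNA groups.

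In each comparison with control, the values of 9 of 10 genes did not overlap between groups, 8 of them higher and Ifngr2 lower. Among all tested genes, 53.9% did not overlap in miR-144 TAMs (37.9% higher, 16% lower) and 55.2% in miR-451a TAMs (38.8% higher, 16.4% lower). The exceptions were Mb21d1 in miR-144 TAMs and Tbk1 in miR-451a TAMs.

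Between TAMs of miR-451a and miR-144 tumors, none of the 10 genes passed in limma (0 of 10, with 0% of all tested genes called), and 1 of 10 had an unadjusted p under 0.05, beside 5.22% of all tested genes. That gene was Ifngr1, 1.12-fold higher in miR-451a TAMs (log2 fold change 0.16, 95% confidence interval 0.02 to 0.30, unadjusted p = 0.0276, adjusted p = 0.946). Tmem173 was 1.12-fold higher (log2 fold change 0.15, unadjusted p = 0.0510), with 4 of 5 miR-451a samples above all miR-144 samples. No gene of the 10 had groups that did not overlap, beside 0.849% of all tested genes. The widest confidence interval, that of Ddx58, reached 0.25 to either side of 0.02, so a difference between the miRNA groups anywhere within it remains possible for this gene. No detection limit was calculated for 5 samples per group. For Mavs the interval was -0.09 to 0.09, and for Ifngr2 -0.07 to 0.04.

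The genes that act around these sensors and receptors were described by 6 lists of 93 genes, of which 69 were tested. Of these 69, 59 passed in miR-144 TAMs (50 higher, 9 lower), 58 in miR-451a TAMs (49 higher, 9 lower), and 0 between the miRNA groups. These are 85.5% and 84.1% called, 72.5% and 71% higher and 13% and 13% lower, beside 67.2% and 68.3%, 47.1% and 48.1%, and 20.1% and 20.3% of all tested genes. The median log2 fold change of the 69 genes was 0.32 and 0.37 against control, beside 0.13 and 0.14 over all tested genes. The lists were chosen with earlier results known, and their counts are given as a description. With median centring, 40 of the called genes were higher and 16 lower in miR-451a TAMs.

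None of the 21 interferon ligand genes reached the floor of 3 fragments in any sample. Of these, 17 were listed at 0 in all samples, and the highest value was 0.171 FPKM for Ifnb1, which was above 0 in 6 samples. The floor covers counting error only, and interferon protein from other cells is not measured by RNA of sorted TAMs.

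Of 15 tested genes that act next to the receptors, 11 rose and 3 fell in miR-144 TAMs, and 9 rose and 3 fell in miR-451a TAMs, with medians of 0.29 and 0.33 on the log2 scale. The lower share was 20% in both, beside 20.1% and 20.3% of all tested genes, and the higher share 73.3% and 60%, beside 47.1% and 48.1%. Ptpn6, the phosphatase SHP-1, rose from 53.1 to 124 and 123 FPKM (log2 fold changes 1.20 and 1.20), and Socs3, a feedback inhibitor of cytokine receptors, rose by 0.83 and 0.92. Socs1, a feedback inhibitor of JAK kinases that blocks interferon receptor signaling, fell from 4.75 ± 0.421 FPKM to 0.243 ± 0.0733 and 0.267 ± 0.108 FPKM (SD, n = 5 each; log2 fold changes -2.21 and -2.18, adjusted p = 4.15e-13 and 4.20e-13). Jak2, the kinase bound to IFNGR2, fell from 22.7 ± 1.09 FPKM to 10.1 ± 0.494 and 10.6 ± 0.536 FPKM (log2 fold changes -1.10 and -1.02, adjusted p = 5.63e-12 and 1.17e-11), and the phosphatase gene Ptpn2 fell by 0.30 and 0.28. Jak2 and Ifngr2 thus fell in both miRNA groups, whereas Jak1 and Tyk2, the other receptor kinases, had log2 fold changes of 0.08 and 0.29 in miR-144 TAMs and 0.06 and 0.33 in miR-451a TAMs, of which that of Jak1 in miR-451a TAMs did not pass (adjusted p = 0.0657). The sign of Jak1 turned with median centring (-0.06 and -0.08, adjusted p = 0.137 and 0.0316). Its call in miR-144 TAMs was lost without control replicate 1 or 2 or miR-144 replicate 2 or 3 (0.06 to 0.07), and it passed in miR-451a TAMs without control replicate 3 or miR-144 replicate 1 or 3 (0.06 to 0.07).

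Among 16 tested partners of the RNA sensors, 11 rose and none fell in each miRNA group (0 of 16 lower, medians 0.24 and 0.26). The called share of 68.8% was near that of all tested genes (67.2% and 68.3%), of which 47.1% and 48.1% were higher. Ddx60, a helicase that promotes RIG-I signaling, rose from 1.31 to 5.59 and 5.81 FPKM (log2 fold changes 1.52 and 1.56), Dhx58 (LGP2), the third RIG-I-like receptor, from 10.4 to 25.4 and 24.9 FPKM (1.21 and 1.17), and Nlrc5 from 6.99 to 13.2 and 12.8 FPKM (0.83 and 0.79). Trim25, a ubiquitin ligase that acts on RIG-I, did not pass (log2 fold changes -0.25 and -0.10, adjusted p = 0.112 and 0.512), although it passed in miR-144 TAMs with median centring (-0.38) and without miR-144 replicate 5 (-0.33). Its miR-144 value rested on replicate 2 with 28.7 FPKM, beside 46.8 to 56.4 FPKM in the other samples of that group, and was -0.09 without it (adjusted p = 0.243). The 3 RIG-I-like receptor genes Ddx58, Ifih1 and Dhx58 all rose, with no sample of the miRNA groups overlapping with control.

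Of 14 tested genes around the DNA sensor, 8 rose and 4 fell in each miRNA group (medians 0.21 and 0.21). These were 57.1% higher and 28.6% lower, beside 47.1% and 48.1% higher and 20.1% and 20.3% lower of all tested genes. Trex1, the exonuclease that removes cytosolic DNA, rose from 10.6 ± 1.99 FPKM to 36.3 ± 20.6 FPKM in miR-144 TAMs, where samples ranged from 15.6 to 68.3 FPKM, and to 25.9 ± 5.95 FPKM in miR-451a TAMs (SD, n = 5 each; log2 fold changes 1.54 and 1.21, adjusted p = 0.000309 and 0.00204). Zbp1, a sensor of Z-form nucleic acids, rose by 1.15 and 1.06, Ifi204 by 0.77 and 0.70, and Adar, which edits double-stranded RNA, by 0.76 and 0.72. Dnase2a, the lysosomal DNase, fell from 46.8 ± 0.769 FPKM to 29.5 ± 1.26 and 28.8 ± 0.946 FPKM (log2 fold changes -0.65 and -0.68), and the RNase H2 subunit genes Rnaseh2a (-0.44 and -0.48) and Rnaseh2b (-0.43 and -0.35) fell as well.

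Of 11 genes of the TBK1 complex and its targets, 7 rose and 2 fell in miR-144 TAMs, and 8 rose and 2 fell in miR-451a TAMs (medians 0.32 and 0.35). The higher share was 63.6% and 72.7%, beside 47.1% and 48.1% of all tested genes, and the lower share 18.2% in both, beside 20.1% and 20.3%. Irf7, the interferon-inducible target, rose from 7.85 ± 2.0 to 36.3 ± 7.74 and 36.8 ± 7.50 FPKM (log2 fold changes 2.08 and 2.11), whereas Irf3, the constitutive target, changed by 0.32 and 0.25, the latter not passing with median centring (0.11, adjusted p = 0.0685). Ikbke, the closest relative of Tbk1, rose from 15.3 to 25.9 and 26.4 FPKM (0.72 and 0.74), and the adaptor gene Tbkbp1 from 5.83 to 14.0 and 14.1 FPKM (1.13 and 1.14). Optn, the gene of the adaptor optineurin, fell by 0.51 and 0.58 on the log2 scale. Sqstm1 fell by 0.12 and 0.14, and its sign turned with quantile normalization (0.02 and 0.01, adjusted p = 0.713 and 0.864).

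All 13 interferon-induced effector genes rose in both miRNA groups, with medians of 1.52 and 1.49, where 47.1% and 48.1% of all tested genes rose. Ifit3 rose from 6.95 to 94.7 and 89.9 FPKM (log2 fold changes 3.59 and 3.51), Ifit2 from 6.91 to 50.2 and 48.6 FPKM (2.68 and 2.63), and Ifit1 from 5.62 to 29.9 and 28.6 FPKM (2.21 and 2.14). Values of Ifit3, Oas1a and Oas1g are uncertain, because 51.2%, 57.6% and 54.7% of their 50-base stretches also occur in other genes, mostly in Ifit3b, Oas1g and Oas1a.

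**Figure D4:**
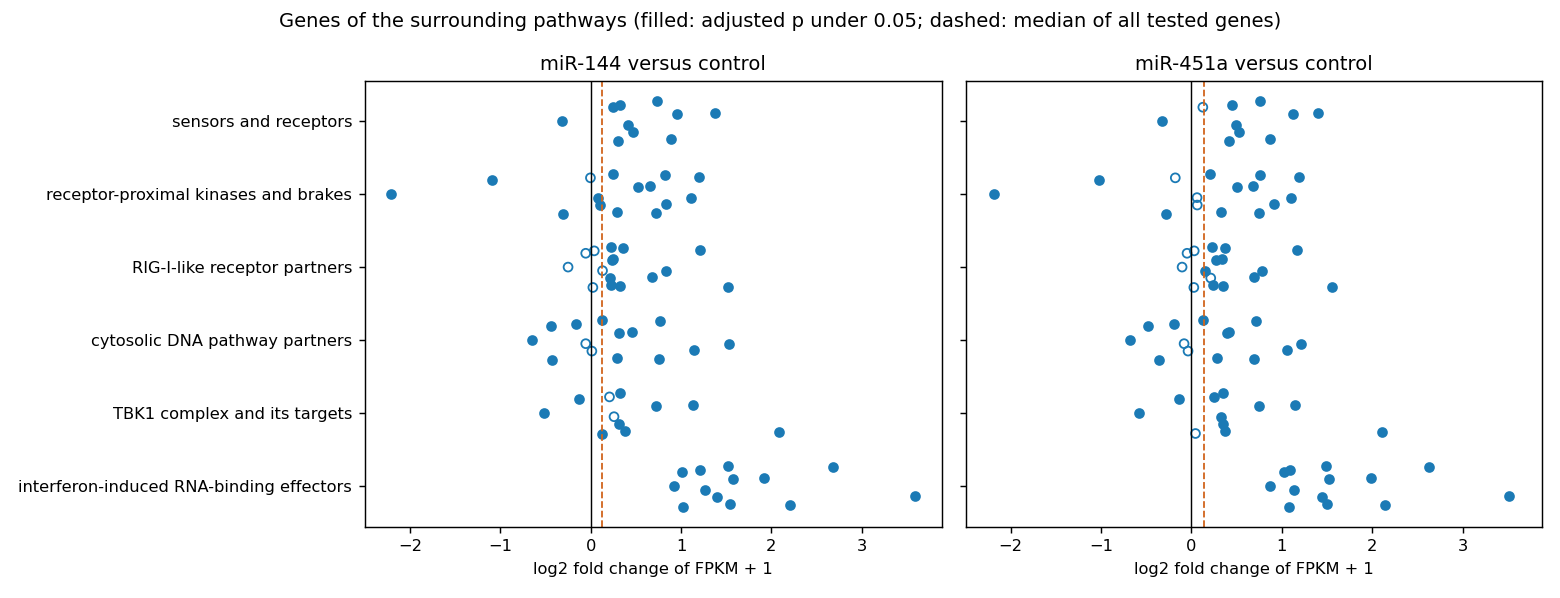
Log2 fold change of FPKM + 1 against control (x axes) of the 10 sensor and receptor genes and of the tested genes in each list (y axis), with filled points for an adjusted p under 0.05 and a dashed line at the median of all tested genes (0.13 and 0.14). All effector genes have filled points to the right of 0, up to 3.59 and 3.51 for Ifit3, and Socs1 (-2.21 and -2.18) and Jak2 (-1.10 and -1.02) lie farthest to the left.

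Within groups, Ddx58 and Ifih1 varied together. Replicates 3 and 4 had the lowest values of both genes in all 3 groups, and the highest values of Ifngr2 in all 3 groups and of Ifnar2 in both miRNA groups. Of all tested genes, 3.33% had replicates 3 and 4 lowest in all 3 groups and 1.23% had them highest, and 9 of the 13 effector genes had them lowest. Over the deviations of the 15 samples from their group means, Pearson's r was 0.912 between Ddx58 and Ifih1, -0.891 between Ifnar2 and Ifih1, and -0.741 between Ifngr2 and Ddx58, as a description of genes read from the same libraries. The Kupffer cell marker Cd5l had 44.9 and 48.9 FPKM in replicates 3 and 4 and 16.4 to 19.7 FPKM in the other miR-144 samples. In miR-451a samples it had 38.4 and 46.1 FPKM beside 15.3 to 18.3 FPKM, and in control 3.45 and 3.65 FPKM beside 3.21 to 3.396 FPKM. Timd4 and Marco, under 1 FPKM, were also highest in miR-144 replicates 3 and 4. Vsig4 did not follow there (0.376 and 0.298 FPKM, highest in replicate 1), and Clec4f was at 0. The endothelial marker Stab2 had 1.334 and 1.205 FPKM beside 0.431 to 0.561 FPKM in miR-144 samples. In miR-451a samples it had 1.24 FPKM in both beside 0.568 to 0.695 FPKM. The part of these markers in the pattern was not tested. The labels name no batch. With replicates 1, 2 and 5 alone, 9 of 10 genes passed in each comparison with control, beside 57.4% and 59.8% of all tested genes.

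**Figure D5:**
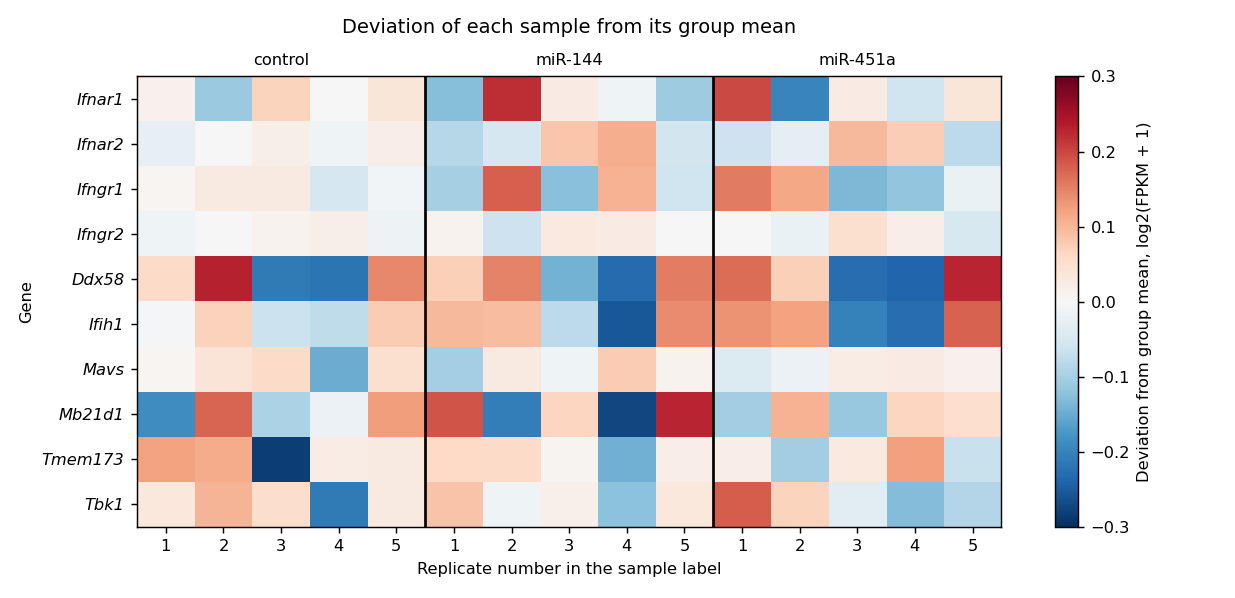
Deviation of log2(FPKM + 1) from the group mean (color, -0.3 to 0.3) for the 10 genes (y axis) in the 15 samples, ordered by group and by the replicate number in the label (x axis). Replicates 3 and 4 are blue for Ddx58 and Ifih1 in all 3 groups, and red for Ifnar2 in both miRNA groups.

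The genes most like each of the 10 in level over the 15 samples were found by Pearson's r of log2(FPKM + 1), which mostly follows the difference between control and miRNA groups. For Ddx58 they were Slfn5 and the RNA-activated kinase gene Eif2ak2 (r = 0.998 each), for Ifih1 Fnbp4 and Herc6 (r = 0.996 each), for Mavs Nod1 (0.987) and Nt5dc2 (0.982), and for Tmem173 Gpc4 (0.925) and Ptpn4 (0.924). For Ifnar1 they were Sufu (0.967) and Stk35 (0.956), for Ifnar2 Rnf150 (0.998) and the iron exporter gene Slc40a1 (0.997), for Ifngr1 Acvr1b (0.990) and Xpc (0.989), and for Ifngr2 the interleukin-7 receptor gene Il7r and Psap (0.992 each). Likeness was weaker for Mb21d1, with Gm20703 (0.910) and AC147029.1 (0.907), and for Tbk1, with Ninj1 (0.908) and Sgk3 (0.870).

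By deviations from the group means, the closest genes over the 15 samples were Slfn5 (r = 0.981) and Sp100 (0.976) for Ddx58, and Cybb (0.983), a subunit gene of the phagocyte oxidase, and Slc5a3 (0.979) for Ifih1. For the receptors they were Rbm45 (0.864) and Xlr3b (0.834) for Ifnar1, Fchsd2 and Osbpl11 (0.953 each) for Ifnar2, Insig1 (0.901) and Gm14494 (0.877) for Ifngr1, and Phyh (0.938) and 1810013L24Rik (0.876) for Ifngr2. For the remaining genes they were Tab1 (0.870) and AW554918 (0.863) for Mavs, Ak6 (0.913) and Ublcp1 (0.849) for Mb21d1, Arhgef25 (0.901) and Nsun2 (0.828) for Tmem173, and Gm12250 (0.890) and B3galnt2 (0.853) for Tbk1. Slfn5 was thus close to Ddx58 by both measures.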

How the data were processed

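RNA of FACS-sorted TAMs was sequenced by the authors on an Illumina HiSeq instrument. The values the authors deposited are FPKM, in which fragments are scaled to transcript length and to library size. The submitters' processing notes list FastQC 0.11.2, STAR and StringTie without their roles or settings, and the genome build and annotation are not given in the sources used here. Groups and replicate numbers came from the sample labels. Of the gene identifiers, 99.7% occur in GENCODE M21, whose coordinates are given.

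Depth was read from the steps of low FPKM values in genes with 1 transcript of at least 1000 bp. Only 42.9% to 55.8% of low values lay on a step, within 0.05 of a whole number of fragments (10% would by chance), so the deposited FPKM could not be turned back into counts. Of 30 pairs of samples of the same group, 0 were identical.

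Genes were tested if their mean over the 15 samples reached 1 FPKM. limma 3.58.1 (R 4.3.3) was applied to log2(FPKM + 1) in a single fit of all 3 groups, allowing for a trend of the variance with the mean, and p-values were adjusted by the Benjamini-Hochberg method. Fold changes on this scale understate those of low genes, and values written as "-fold" are ratios of mean FPKM. The ratios of partner genes were compared with two-sided exact permutation tests. The steps were tested on simulated data. Python 3.11.15 with numpy 2.4.6, pandas 2.3.3 and scipy 1.17.1 was used for the other steps, and matplotlib 3.10.9 for the figures.

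The 10 genes and the lists were chosen with earlier results of these data known. Named genes were the 10 genes, for each the 2 genes of highest correlation by level and by deviation, in each list up to 3 of the largest significant rises and falls per comparison with control, and markers. Il10rb, Jak1, Tyk2, Irf3, Trim25, Oas1a, Oas1g, Cd5l, Bst2 and Col1a1 were named in addition, after their values were seen. For 1 list gene that met the rule for naming, no values are given, although it enters the counts and the median of its list. Tested list genes that did not meet the rule enter in the same way, and not all of them have values here. The marker Itgam was left out because 2 gene identifiers carry its symbol.

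Alternatives were a pseudocount of 0.1, a filter at 5 FPKM or none, other scalings (median centring, quantile normalization, TPM), no trend, only the compared groups, a replicate block and leaving out each sample. Leaving out replicates 3 and 4 was added after seeing the data.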

Additional observations from a re-analysis of the deposited data

Results flagged for a closer look

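In 42 groups of 5 values (10 genes and 4 ratios in 3 groups), 7 single samples lay far from the others of their group, with a gap to the nearest sample of more than 0.71 of the whole range. Chance alone flags about 1 in 20 groups, or 2.1 of 42. Control replicate 4 was the lowest for Mavs (14.9 FPKM, next 16.7 FPKM), for Tbk1 (19.0 FPKM, next 22.6 FPKM) and for the ratio of Ifngr1 to Ifngr2 (0.392, next 0.413). Control replicate 3 was the lowest for Tmem173 (9.25 FPKM, next 11.7 FPKM), and miR-144 replicate 4 was the lowest of its group for the same gene (12.9 FPKM, next 14.5 FPKM). For the ratio of Ifnar1 to Ifnar2, control replicate 2 was the lowest (0.584, next 0.638) and miR-144 replicate 2 the highest of its group (0.642, next 0.512).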

How the results depend on the processing

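Over 25 alternatives, of which 15 left out 1 sample each, 741 of 747 values of the 10 genes kept their direction and their side of the threshold, or were not called either way. The calls lost were those of Mb21d1 and Tbk1 in miR-144 TAMs given above, and Tbk1 in miR-451a TAMs passed after rescaling to TPM and with the replicate block (0.13, adjusted p = 0.020). A minimum mean of 5 FPKM removed Mb21d1 and left 4776 called genes in place of 7668 for miR-144 and 4821 in place of 7804 for miR-451a, since 6639 genes were then tested. Among 31 other named genes, 1520 of 1542 values kept theirs, and the others were those of Trim25 and Irf3 given above, of Jak1, which turned to -0.0553 and -0.0817 with median centring and crossed the threshold under several others, and of Sqstm1, which turned to 0.0181 and 0.00835 with quantile normalization and did not pass after rescaling to TPM (-0.05 in both) or with replicates 1, 2 and 5 in miR-144 TAMs (-0.11). Without 1 sample, 10, 9 and 0 of the 10 genes passed in the comparisons of miR-144 with control, miR-451a with control and miR-451a with miR-144, the lists had 58 to 59, 55 to 59 and 0 calls, and the 0 calls over all genes between the miRNA groups became at most 2.

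The labels do not say that a replicate number marks a shared animal or day, and the criterion for pairing, a correlation of deviations over 0.1 in every pair, was met in 8 of 15 pairs. Same-numbered samples had mean correlations of -0.01, 0.14 and 0.10 in the comparisons of miR-144 with control, miR-451a with control and miR-451a with miR-144, beside 0.00, -0.03 and -0.03 for other pairs. With 5 samples matched to the other group in each of 3 comparisons, 8 of 15 matches were best with their own number, which is a hint from the data and not from the design. With the replicate block, the exact sign-flip test over 5 pairs cannot go below 0.0625, and the ratios of Ifngr1 to Ifngr2 (1.31 and 1.49) and Ddx58 to Ifih1 (0.49 and 0.53) had an adjusted p of 0.188, while Tbk1 and Jak1 (0.06, adjusted p = 0.04999) passed in miR-451a TAMs, no other call changed among the 10 genes and the 31 other genes, and the lists had 59 calls in place of 58 for miR-451a. Leaving out 1 sample, the ratio of Ifnar1 to Ifnar2 ranged from -0.33 to -0.23 for miR-144 and from -0.30 to -0.18 for miR-451a.

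With 5 samples per group, differences between the miRNA groups are bounded only by the intervals given, and the interferon ligands, all under the floor of 3 fragments, could not be compared.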

Other observations

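Il10rb, which lies between Ifnar2 and Ifnar1, fell into separate ranges regardless of group. It had 32.4 to 35.0 FPKM in 4 samples (control replicate 2, miR-144 replicate 3, miR-451a replicates 2 and 3) and 52.7 to 64.6 FPKM in the other 11. Its neighbors Ifnar2 and Ifnar1 did not show this split. Gm21970, a gene model that overlaps Ifnar2 and Il10rb, was above 0 in 2 samples, control replicate 3 (0.634 FPKM) and miR-451a replicate 1 (1.31 FPKM), neither of which is among the 4.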
